A study of Mus musculus with 2 samples.

Results

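Canonical histone genes encode the linker histone H1 and the core histones H2A, H2B, H3 and H4. They were taken as the RefSeq protein-coding genes on mm10 whose symbols begin with H1f, H2ac, H2bc, H3c or H4c and end in digits, which gave 67 of 21631 protein-coding genes on the autosomes and chromosome X. Brg1-bound regions were compared with them in a medulloblastoma that arose spontaneously in mice carrying CAG-CreER and Rosa26-SmoM2. CAG is a broadly active promoter, CreER is a tamoxifen-dependent recombinase, and SmoM2 encodes constitutively active Smoothened, the transducer of Hedgehog signals. The data comprised 1 library precipitated with the J1 antibody, which is labelled as recognising Brg1 and its paralogue Brm, and 1 input library from the same genotype without antibody, which is not analysed here. The sources used here state neither the age of the mice nor how many tumours went into the library. With 1 ChIP library there is no replicate error, so no test was made, and what follows describes a single list of enriched regions, or islands.

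Brg1 is the ATPase of the BAF chromatin remodelling complex, which uses ATP to slide or evict nucleosomes. Replication-dependent histone genes are short, lack introns and are packed in clusters, where they are switched on together as cells enter S phase to supply the proteins that wrap newly made DNA. Their mRNAs end in a stem-loop in place of a poly(A) tail. The clusters gather in nuclear histone locus bodies with the transcription coactivator Npat. Not every member of the set is of this kind. Examples are H1f0, a replacement linker histone made in non-dividing cells, and H1f8, an oocyte linker histone. Others are H1f6, H1f7, H2ac1 and H2bc1, which are made in the testis.

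The deposited list held 5727 islands, each with a whole number taken as its reads, with a median of 68 reads (interquartile range 56 to 86) and a median width of 2200 bp. Only called regions are listed and total depth is unknown, so absence of an island does not show absence of Brg1. An island lay within 5 kb of all 7 granule lineage and Hedgehog genes looked up (Atoh1, Zic1, Barhl1, Meis1, Neurod1, Gli1 and Ptch1), beside 16.9% of all protein-coding genes; they were listed with earlier results known, so this is no test of the tissue. It lay there in 2 of 8 markers of other cells, Cdh5 of endothelium and Mbp of oligodendrocytes, and in none of Cx3cr1, Csf1r, Pecam1, Mog, Aldh1l1 and Aqp4.

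The promoters printed here are those of the genes nearest to the island with the most reads in each chromosome 13 cluster, with 1 H4 gene, H4c12, added after its values were seen because its start lay inside an island. The chromosome 3 equivalent, H4c14, is named only. Each sequence is the 150 bases before the RefSeq start, read 5′ to 3′ on the gene's strand from RefSeq on GRCm38.p6 (mm10). Capitals mark matches on either strand to the TATA box TATAAA, the CCAAT box CCAAT, the AC box AAACACA or the H4 site II core GGTCCG.
H1f5, chr13:21780626-21780775, minus strand: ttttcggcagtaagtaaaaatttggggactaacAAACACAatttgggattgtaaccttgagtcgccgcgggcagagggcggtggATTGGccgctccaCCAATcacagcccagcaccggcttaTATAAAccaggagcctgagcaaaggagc
H3c11, chr13:21783398-21783547, minus strand: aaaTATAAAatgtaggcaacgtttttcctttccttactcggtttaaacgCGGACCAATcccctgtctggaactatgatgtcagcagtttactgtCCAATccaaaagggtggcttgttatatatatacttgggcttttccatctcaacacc
H2ac22, chr13:21787249-21787398, minus strand: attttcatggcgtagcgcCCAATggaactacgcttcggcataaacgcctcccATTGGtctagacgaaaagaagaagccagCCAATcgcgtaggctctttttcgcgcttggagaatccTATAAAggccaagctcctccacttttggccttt
H2ac10, chr13:23533725-23533874, plus strand: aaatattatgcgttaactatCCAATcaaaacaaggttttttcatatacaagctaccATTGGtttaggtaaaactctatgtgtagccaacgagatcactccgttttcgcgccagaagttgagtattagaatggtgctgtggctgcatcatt
H2ac12, chr13:22035644-22035793, minus strand: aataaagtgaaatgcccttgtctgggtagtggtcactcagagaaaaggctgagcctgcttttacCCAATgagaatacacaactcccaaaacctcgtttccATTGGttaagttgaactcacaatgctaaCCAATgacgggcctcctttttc
H4c12, chr13:21750554-21750703, minus strand: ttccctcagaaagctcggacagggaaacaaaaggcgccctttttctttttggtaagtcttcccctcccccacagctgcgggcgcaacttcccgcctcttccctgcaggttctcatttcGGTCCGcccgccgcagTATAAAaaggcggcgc
The starts of H1f5, H3c11, H2ac22, H2ac10 and H4c12 lay inside an island, and that of H2ac12 did not.

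Of the 67 histone genes, 31 (46.3%) had an island within 5 kb of the gene, against 16.9% of all protein-coding genes. The 31 genes were served by 14 distinct islands, because neighbouring genes shared them: 10 of the 14 islands lay within 5 kb of 2 or more histone genes and of more than 1 histone class. Counting only islands of 68 or more reads, the median, 14 histone genes (20.9%) were near an island, against 9.66% of all protein-coding genes, and with the 1464 islands of highest count 9 (13.4%), against 5.21%. The median distance from a histone gene to the nearest island was 5.95 kb, against 125 kb over all protein-coding genes. Histone genes lie side by side, so neither their genes nor these distances are independent of each other.

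**Figure D1:**
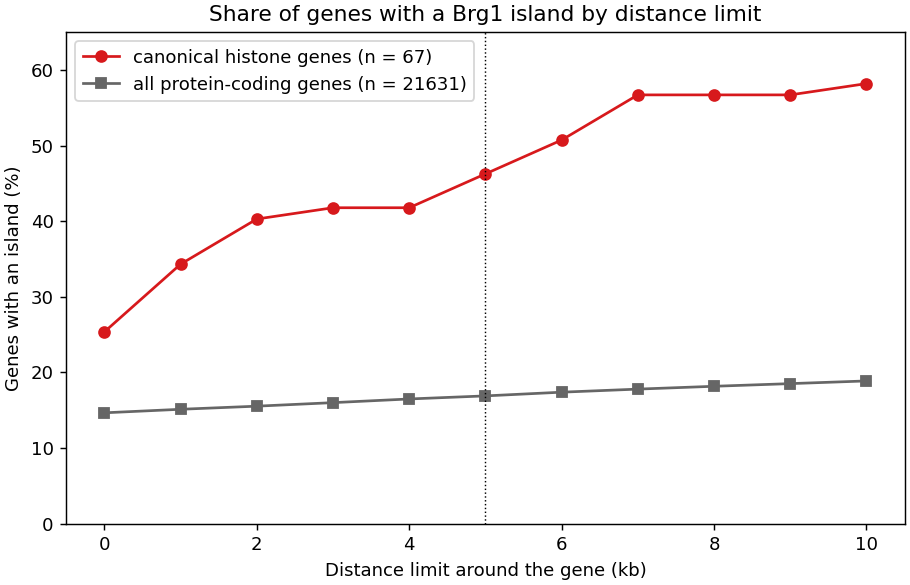
Percentage of genes with an island (vertical axis) against the distance limit around the gene in kb (horizontal axis), for histone genes (red circles, n = 67) and all protein-coding genes (grey squares, n = 21631); the dotted line marks 5 kb. Histone genes stood at 25.4% with overlap alone and 58.2% at 10 kb, against 14.7% and 18.9% of all protein-coding genes.

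Histone genes are short, with a median extent of 496 bp, and a short gene has less room for an island. Among the 58 histone genes of at most 1 kb, 27 (46.6%) were near an island, against 11 of 1383 (0.795%) other protein-coding genes of that size. This comparison was added after seeing the data. The kinds of gene among those others were not examined, so they can differ from histone genes in more than length. All protein-coding genes of that size, histone genes included, gave 2.64%, those no longer than the longest histone gene gave 11.8%, and those on the chromosomes that carry histone genes gave 18.1%. An island overlapped the gene itself in 17 of the 67 histone genes, beside 14.7% of all protein-coding genes. The annotated start lay inside an island in 12 of the 62 histone genes with a promoter entry in the table used, beside 8.57% of 17274 such protein-coding genes. The other 19 of the 31 genes were near an island that covered no known start of theirs. Within 1 kb of the start an island was found for 18 of the 62 genes, beside 9.53%. H2bc4, H2bc21, H3c1, H3c7 and H4c14 had no promoter entry. All of these but H2bc21 are among the 19 genes, so their starts were not assessed, and H4c14 lay wholly inside an island.

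Most of the genes and islands were on chromosome 13, whose 53 histone genes formed 4 clusters when genes up to 100 kb apart were chained. The counts by cluster stand beside an island within 5 kb of 16.9% of all protein-coding genes. The first, from H2bc13 to H2ac24 (chr13:21715711-21833475, 17 genes), had an island near 10 genes, from 4 distinct islands with 354 reads in all, 1 of them outside the span. Another, from H4c8 to H1f1 (chr13:23531044-23764412, 29 genes), had one near 15 genes, from 6 distinct islands with 396 reads. Between them, the 5 genes from H2ac12 to H2bc11 had an island near H2ac12 alone, which is 20% and near that share. Beyond H1f1 the testis pair H2bc1 and H2ac1 had none, the nearest lying 170 kb from H2bc1. The chromosome 3 cluster, from H2ac21 to H2bc18 (chr3:96219885-96270192, 10 genes), had an island near 4 genes, from 2 distinct islands with 125 reads.

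**Figure D2:**
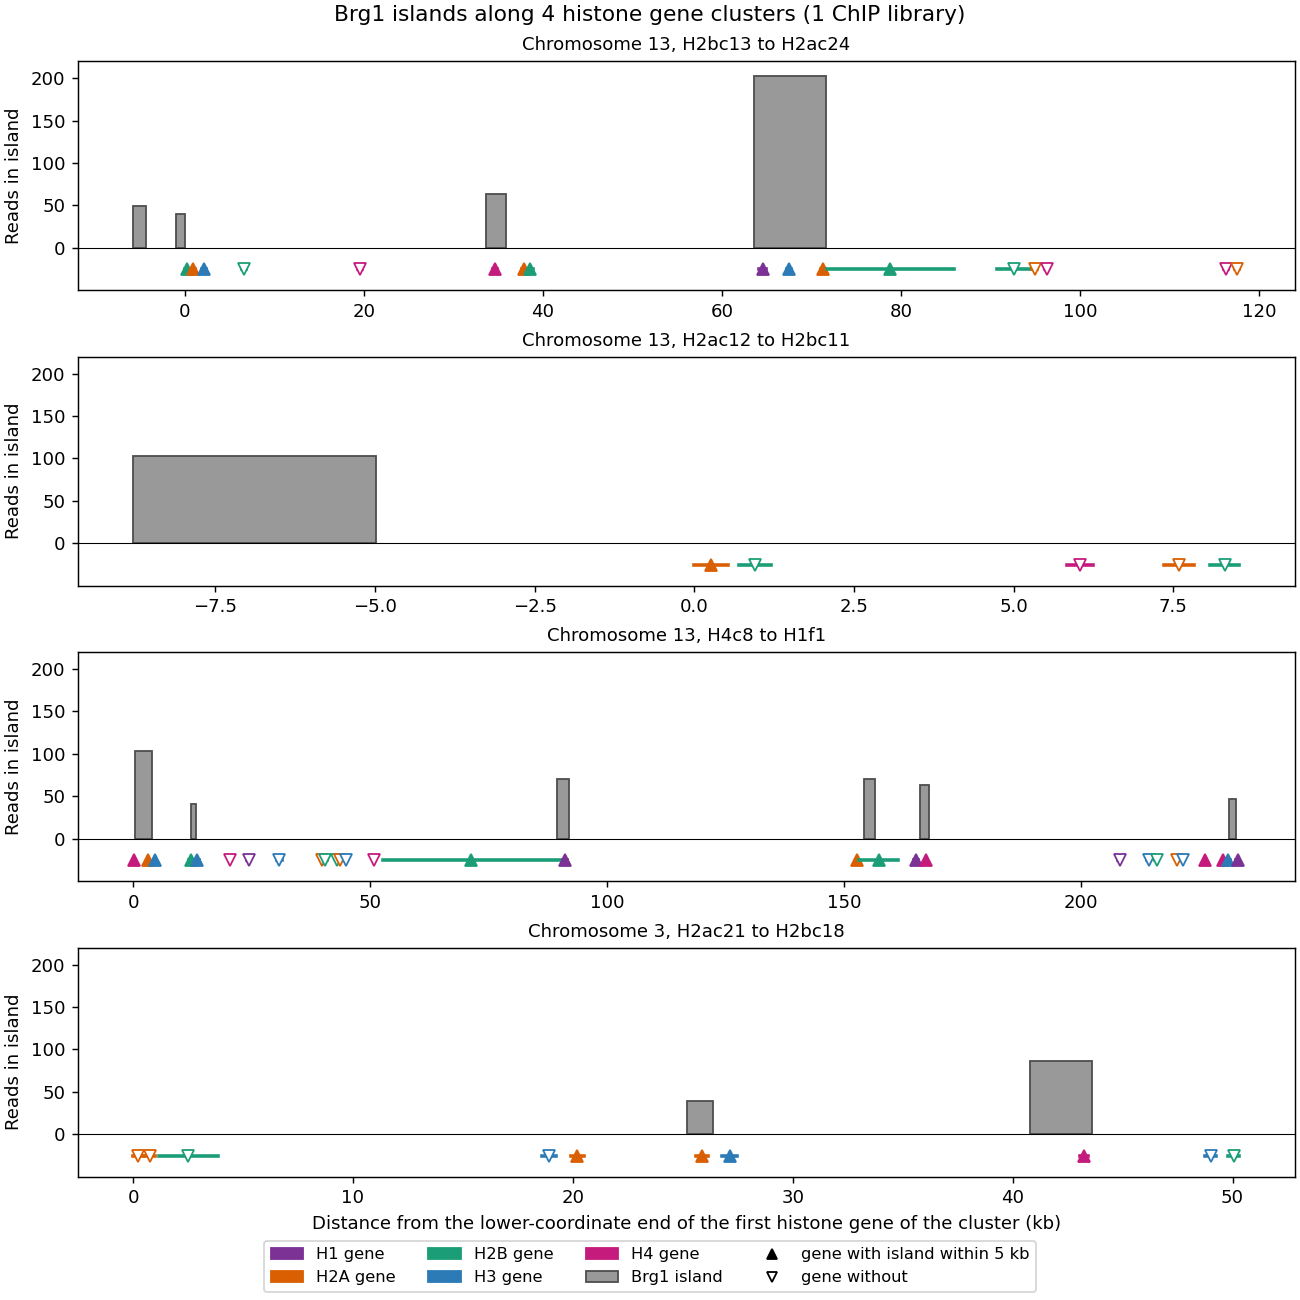
Position in kb from the first histone gene of each cluster (horizontal axis) and reads per island (vertical axis, grey bars drawn to width) for the 3 larger groups on chromosome 13 and the cluster on chromosome 3; lines below give gene extents and triangles their midpoints, coloured by class, filled where an island lay within 5 kb. One island of 202 reads stands above the others, which hold between 39 and 104 reads, and runs of open triangles separate the islands.

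Islands per length were more frequent within these spans than along their chromosomes. The H2bc13 to H2ac24 span held 3 islands (2.55 per 100 kb) and the H4c8 to H1f1 span held 6 (2.57 per 100 kb), against 0.236 per 100 kb along chromosome 13. The chromosome 3 span held 2 (3.98 per 100 kb), against 0.192 along chromosome 3. Islands covered 8.68%, 5.31% and 7.95% of these 3 spans, against 0.620% of chromosome 13 and 0.487% of chromosome 3. The spans are packed with genes. The chromosome values, taken from the first to the last annotated gene, were not matched to them for gene density. The span from H2ac12 to H2bc11, of 8.54 kb, contained no island.

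The island with the most reads near any histone gene held 202 reads (exact Poisson 95% interval 175 to 232, counting error only) over 8000 bp (chr13:21779332-21787331). It contained the whole of H1f5, which encodes a linker histone, of H3c11 and of H2ac22, with all 3 starts, and ended 152 bp from H2bc22. It ranked 67 by reads among the 5727 islands, and 23 islands were wider. Its density was 5.05 reads per 200 bp, and 7.96% of islands had a lower one. The list held 2 islands of this width, with a median of 242 reads.

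The other islands of that cluster were smaller. H4c12 lay wholly inside an island of 63 reads (48.4 to 80.6; chr13:21749332-21751531), which was 1846 bp from H2ac15 and 2545 bp from H2bc15. An island of 40 reads (28.6 to 54.5; chr13:21714732-21715731) overlapped the downstream end of H2bc13, leaving its start 452 bp away, and lay 681 bp upstream of H2ac13 and 1897 bp upstream of H3c10. No island lay within 5 kb of H2bc14 or H4c11, or of the last 5 genes, H2bc23, H2ac23, H4c17, H4c18 and H2ac24, which lay 19.1 to 45.7 kb from the nearest one.

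In the cluster from H4c8 to H1f1 the island with the most reads held 104 (85.0 to 126; chr13:23531532-23535131). It contained H2ac10 with its start, came within 54 bp of the downstream end of H4c8 and lay 287 bp upstream of H3c8. A narrow island of 41 reads (29.4 to 55.6; chr13:23543332-23544331) covered the start of H2bc9 and part of H3c7. The next 9 genes, from H4c6 to H4c4, spread over 30.7 kb and had no island within 5 kb; they included the linker histone gene H1f3.

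Further along, an island held 70 reads (54.6 to 88.4; chr13:23620532-23622931) and contained the linker histone gene H1f4 with its start. It also covered 1 of the 2 annotated starts of H2bc6, a gene annotated over 37455 bp, which lay 1464 bp from the start of H1f4. The other start of H2bc6 lay 34.6 kb from any island, so the assignment to H2bc6 rests on its distant start. An island of 71 reads (55.5 to 89.6; chr13:23685332-23687531) lay inside the annotated 8282 bp of H2bc4 and 1373 bp upstream of H2ac6. One of 63 reads (48.4 to 80.6; chr13:23697132-23698931) contained H4c3, and lay 587 bp downstream of the testis gene H1f6 and 3103 bp from Hfe, the haemochromatosis gene. The last, of 47 reads (34.5 to 62.5; chr13:23762332-23763731), covered the start of the linker histone gene H1f1 and the edge of H3c1, and lay 1083 bp upstream of H4c1. Between the last pair, the 5 genes from H1f2 to H3c2 had none within 5 kb.

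The pair of islands that touched no histone gene lay over tRNA genes. The one of 103 reads (84.1 to 125; chr13:22026332-22030131) overlapped n-TVcac8, n-TIaat7 and n-TTagt1 and was 4991 bp from H2ac12, its only link to the histone set. The one of 49 reads (36.3 to 64.8; chr13:21709932-21711331) overlapped n-TGgcc7 and n-TMcat7 and was 4380 bp from H2bc13. In the whole list 47 of 5727 islands (0.821%) overlapped a tRNA gene. Without such islands, an alternative added after seeing the data, 30 histone genes and 12 islands were left, against 16.8% of all protein-coding genes. The cluster from H2ac12 to H2bc11 then had no island.

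On chromosome 3, H4c14 lay wholly inside an island of 86 reads (68.8 to 106; chr3:96260678-96263477). H2ac18 lay with its start inside one of 39 reads (27.7 to 53.3; chr3:96245078-96246277), which ended 408 bp upstream of H3c14 and began 4704 bp upstream of H2ac19. The island at H2ac18 had the lowest count of the 14. No island lay within 5 kb of H2ac21, H2ac20, H2bc21, H3c15, H3c13 or H2bc18.

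Beside 16.9% of all protein-coding genes, only H1f0 of the 4 single genes had an island within 5 kb. It held 76 reads (59.9 to 95.1; chr15:79026971-79029570), covered the start of H1f0 and lay 1304 bp from Gcat, a mitochondrial enzyme gene of glycine metabolism. The islands nearest to H1f8, H1f7 and H1f10 lay 6.34, 275 and 509 kb away.

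The 14 islands near histone genes had medians close to those of the whole list. Their median was 66.5 reads over a median of 2200 bp, beside 68 reads and 2200 bp for all islands. Their median density was 6.30 reads per 200 bp, beside 6.27 for all islands. Against the median of islands of the same width, 4 of the 14 held more reads, 1 the same number and 9 fewer. Of the 14, 7 were at or above the median count of the list.

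**Figure D3:**
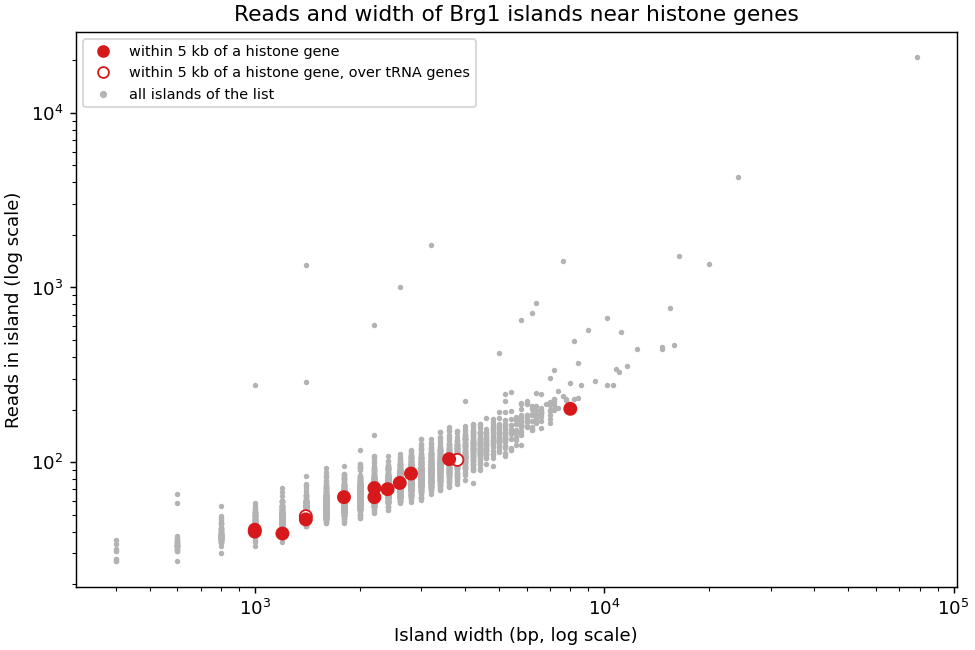
Reads per island (vertical axis, log scale) against island width in bp (horizontal axis, log scale) for the 14 islands within 5 kb of a histone gene (red; open where the island overlapped tRNA genes) and all 5727 islands (grey). The red points lie inside the grey band, from 39 to 202 reads, and none is among the islands with unusually many reads for their width.

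All histone classes had genes with islands. An island lay within 5 kb of 5 of 10 H1 genes, 8 of 17 H2A genes, 6 of 16 H2B genes, 6 of 12 H3 genes and 6 of 12 H4 genes, beside 16.9% of all protein-coding genes. These rested on 5 distinct islands for H1, 7 for H2A, 8 for H2B, 6 for H3 and 5 for H4, and the same island can stand in several classes. The start itself lay inside an island in 4 of 10 H1 genes (H1f5, H1f4, H1f1 and H1f0), 3 of 17 H2A genes (H2ac22, H2ac10 and H2ac18), 2 of 14 H2B genes (H2bc9 and H2bc6), 1 of 10 H3 genes (H3c11) and 2 of 11 H4 genes (H4c12 and H4c3). Over all protein-coding genes with a promoter entry that share was 8.57%. The 1 of 10 for H3 is near it, and each class count rests on at most 4 genes. H2bc13 was overlapped by an island that left its known start uncovered, and H4c14, with no known start, lay wholly inside one. With 1 library and shared islands, differences between classes were not tested.

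**Figure D4:**
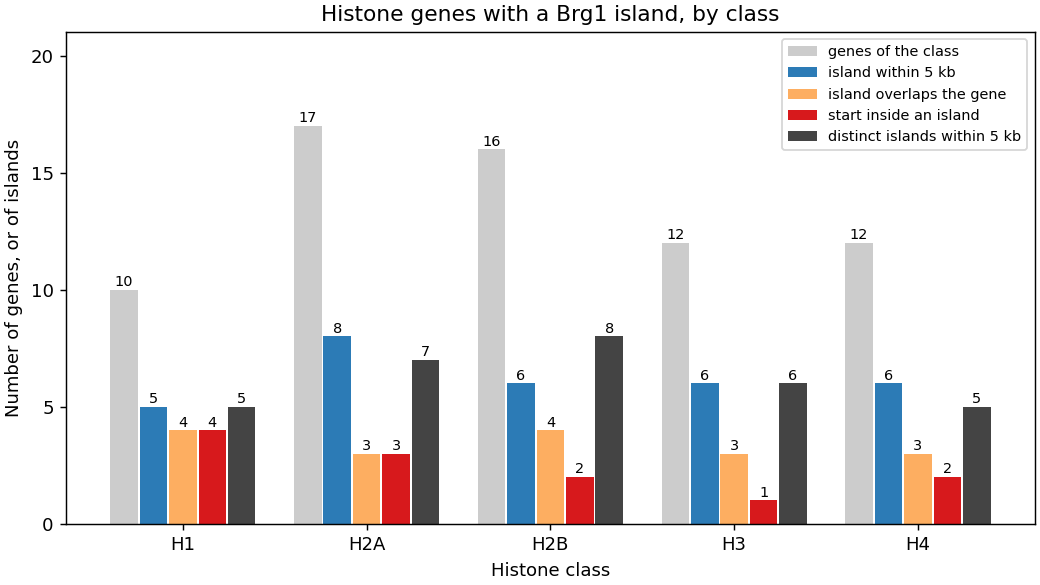
Number of genes or islands (vertical axis) for each histone class (horizontal axis); bars give, from left to right, genes in the class, genes with an island within 5 kb, genes overlapped by an island, genes with a known start inside an island, and distinct islands within 5 kb. Genes with an island within 5 kb outnumber genes with a covered start by 8 to 3 for H2A, whose starts are all known. For H3 they stand at 6 to 1, but H3c7 and H3c1, among the 6, have no known start and could not be counted as covered.

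Divergent gene pairs, in which an H2A and an H2B gene are read in opposite directions from a shared promoter, were looked up by their starts. Genes without a promoter entry could not be paired, among them H2bc4 and H2bc21, which lie next to H2ac6 and H2ac20. Of the 9 divergent pairs found with starts within 500 bp (164 to 281 bp apart), 1 had an island over the interval between the starts, H2ac22 with H2bc22. A start lay inside an island in 8.57% of all protein-coding genes with a promoter entry. That share is of single starts and not of intervals, so 1 of 9 is not read as an excess. In the pairs H2bc13 with H2ac13 and H2ac15 with H2bc15 the nearest island was 452 and 2381 bp from the starts. The other 6 pairs had none within 5 kb of the interval. Among them was H2ac12 with H2bc12, since the island near H2ac12 lay beyond its downstream end, 5512 bp from its start.

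The 5 kb limit decided several assignments. Just inside it, H2ac19, H4c2 and H2ac12 were counted for islands 4704, 4946 and 4991 bp away and had no nearer one. Just outside it, H3c13, H2bc12, H3c15, H2bc18, H2bc14, H1f8 and H4c6 were left out with islands between 5177 and 6955 bp away.

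Motifs known from histone promoters were counted by class. In windows from 250 bases before to 50 after the start, searched on both strands, the H4 site II core GGTCCG was present in 10 of 11 H4 genes and in 13 of all 62 histone genes, beside 12.1% of all protein-coding genes. The octamer ATTTGCAT, the site bound by Oct1, was present in 7 of 14 H2B genes and 6 of 17 H2A genes, whose windows overlap in divergent pairs, beside 1.92% of all protein-coding genes. The AC box AAACACA was present in 5 of 10 H1 genes, beside 7.24%. CCAAT was present in every H2A, H2B and H3 window and in 3 of 11 H4 windows, beside 42.7%. TATAAA was present in 34 of 62 histone genes, beside 14.9%. Matches to different motifs can share bases, as the site II core and CCAAT do upstream of H3c11.

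**Figure D5:**
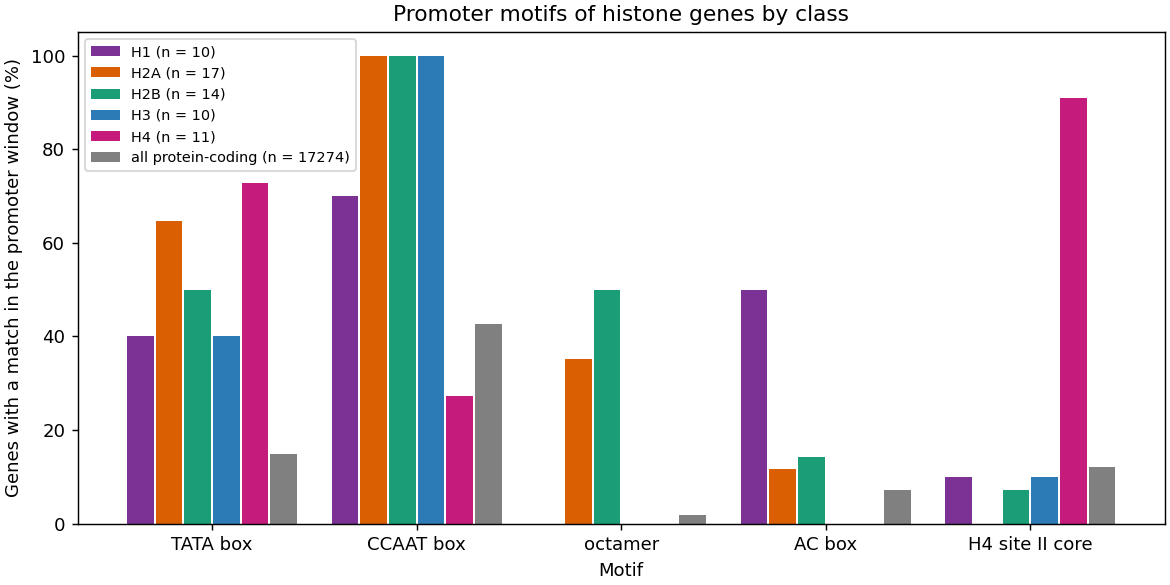
Percentage of genes with at least 1 match in the 300-base promoter window (vertical axis) for each motif (horizontal axis), by histone class and, in grey at the right of each group, for all 17274 protein-coding genes with a window. The site II core is present in 90.9% of H4 genes and the octamer in 50% of H2B genes, beside 12.1% and 1.92% of all protein-coding genes.

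The same motifs were counted in the 12 histone genes whose start lay inside an island (covered genes) and in the 50 whose start did not (uncovered genes). TATAAA was present in 7 covered and 27 uncovered genes, and CCAAT in 10 covered and 41 uncovered genes. The site II core was present in 4 covered and 9 uncovered genes, and the octamer in 1 covered and 12 uncovered genes. Median GC content was 46.3% in covered and 45.5% in uncovered genes, beside 56.7% over all protein-coding windows. With shared islands and shared promoters these counts were not tested. The shown promoters carry examples: TATAAA began 28 bases before the start of H1f5 and 33 before that of H2ac22, while no TATAAA was found in the 150 bases before H2ac10 or H2ac12.

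Some histone promoters are near copies of each other, and how reads that match several places were treated is not given in the sources used here. In 9 of the 62 genes more than 50% of the 30-base stretches of the promoter window also occurred in the window of another, non-overlapping histone gene. They were H4c17 and H4c18 (94.5%), H3c14 and H3c15 (83.4%), H2ac18 and H2ac19 (70.1%), and H2bc23, H2ac23 and H2ac24 (67.2% to 75.3%). The start lay inside an island in 1 of these 9, H2ac18, against 11 of the other 53 genes. Over all protein-coding genes with a promoter entry that share was 8.57%, and 1 of 9 is near it. An island lay within 5 kb in 3 of the 9 against 24 of the other 53, beside 16.9% of all protein-coding genes. Those 3, H2ac18, H2ac19 and H3c14, were all near the same island of 39 reads. The run without an island from H2bc23 to H2ac24 consists of such genes. The part of sequence copies in the missing islands was not tested.

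Other genes of histone supply were looked up from a list of 45, of which 11 (24.4%) had an island within 5 kb, beside 16.9% of all protein-coding genes. Among 20 genes for histone transcription and mRNA processing 3 did, near the 16.9% of all protein-coding genes. Pou2f1, which encodes Oct1, had 2 islands, the larger of 103 reads, and E2f1, an S-phase transcription factor, had one of 60 reads; both had a start inside an island. Gon4l, a relative of the fly histone locus body protein Mute, had one of 56 reads at 2729 bp. None lay within 5 kb of the histone locus body genes Npat (668 kb) and Casp8ap2 (75.8 kb), the H4 promoter factor gene Hinfp (28.0 kb) or the stem-loop binding protein gene Slbp (364 kb).

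Among 17 genes for histone chaperones and related factors 3 had an island, a share near the 16.9% of all protein-coding genes. They were Asf1a, a chaperone of H3 and H4, with 69 reads, Supt16, a subunit of the FACT complex, with 66, and Cabin1, a partner of the Hira chaperone, with 2 islands of up to 56. Of the 8 replacement variant genes 5 had one, beside the same 16.9%. H3f3a and H3f3b, which both encode the variant H3.3, had islands of 136 and up to 61 reads, Macroh2a1 of up to 112, H2az2 of 77 and H2ax of 64. None lay within 5 kb of H2az1, Macroh2a2 or the centromeric variant gene Cenpa.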

How the data were processed

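The authors deposited 1 island list for the ChIP library giving each island's coordinates and a whole number. The deposited number was taken, from its values, as a raw count of reads in the island, since the file has no column names. Per the submitters' processing notes, Bowtie 0.12.7, Picard 1.127 and SICER 1.1 were used, with the builds mm9 and mm10, in roles the notes do not state; the sources used here give neither the caller's settings nor the use of the input. The count is the authors' own value, is not scaled for depth, and was used only to describe islands within the list.

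The notes name both mm9 and mm10, and the island coordinates were taken as mm10. Both ends of each island were moved by 1 base to give 1-based coordinates, which could not be checked. Gene extents came from RefSeq GRCm38.p6 and strand and starts from its promoter windows, which 62 of the 67 histone genes had. An island was near a gene if any part lay within 5 kb of the gene. The assignment was checked against a direct search on simulated intervals. Histone genes up to 100 kb apart formed a cluster. Named genes are the histone genes, the listed genes with an island, and protein-coding or overlapped tRNA genes within 5 kb of a histone island. The listed regulators, variants and cell markers without an island were named after their values were seen. Python 3.11.15, pandas 2.3.3, numpy 2.4.6, scipy 1.17.1 and matplotlib 3.10.9 were used. Intervals are exact Poisson 95% intervals on reads and cover counting error only; reads are not independent molecules. No test was made, with 1 ChIP library. Alternatives varied the distance, the islands, the gene reference point and the background genes. The members and lists were chosen with earlier results of these data known.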

Additional observations from a re-analysis of the deposited data

How the results depend on the processing

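With overlap alone the count of histone genes with an island was 17 (25.4%), beside 14.7% of all protein-coding genes. With 1 kb around the transcription start it was 18, of 62 with a known start (29.0%), beside 9.53%. It was 18 of 67 (26.9%) when each island served the nearest protein-coding gene only, beside 15.3% of all protein-coding genes. That contrast was smaller than the 46.3% against 16.9% within 5 kb. The count was 12 of 62 when the start had to lie inside the island, beside 8.57%. With islands at or above the median count there were 14 histone genes (20.9%), 7 islands and 2089 protein-coding genes (9.66%). With the 1464 islands of highest count there were 9 (13.4%), 4 and 1127 (5.21%). With the start inside an island there were 9 islands and 1481 protein-coding genes. All protein-coding genes gave 1916 (11.1%) within 5 kb and 1646 (9.53%) within 1 kb of the transcription start, where fewer genes, 17274, were tested. They gave 1798 of 15294 (11.8%) among genes no longer than the longest histone gene and 38 of 1441 (2.64%) among genes no longer than 1 kb. On the chromosomes with histone genes they gave 672 of 3714. That is a smaller count from fewer genes, but its share of 18.1% is near the 16.9% over all chromosomes. The other 26 of 43 alternative counts were within 1.5 times the reported one. H1f5, H3c11, H2ac22 and H2ac10 had an island under all 12 alternatives, while H4c2 had one under 3 and H2ac19 under 4. H4c14 on chromosome 3, which has no promoter entry, had one under all 9 alternatives that could be applied to it. The alternatives of start inside the island, islands without tRNA genes and genes no longer than 1 kb were chosen after seeing the data. No paired analysis was possible because there was 1 ChIP library and no test. Without the depth of the library, islands too weak to be called cannot be counted.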
